A study of Mus musculus with 41 samples.

Results

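Gene expression was compared between 9 WT-Tag tumors and 3 WT-Tag hindbrain cultures, 12 of the 41 RNA-seq libraries in a study of a mouse model of brainstem glioma. The libraries were chosen by their labels alone, as every tumor with the WT-Tag allele and every culture of hindbrain neurospheres with that allele. The study was built around H3.3 K27M, a histone mutation of childhood midline gliomas. Both groups described here carried tagged wild-type H3.3 instead, so the comparison sets tumor tissue against a progenitor culture without that mutation. The tumors were brainstem tumors of the genotype Nestin-creERT2; H3f3a LSL-WT-Tag/+; LSL-PDGFRαV544ins; Trp53 flox/flox, which combines an activated PDGF receptor with loss of p53 in cells in which the Nestin promoter drives an inducible Cre. The cultures were neurospheres from e15.5 (embryonic day) hindbrain of the genotype Nestin-cre; H3f3a LSL-WT-Tag/+, with neither the receptor allele nor the floxed Trp53 alleles, and were grown under conditions for neural precursor cells. Where a result is set against K27M, 20 K27M tumors and 3 K27M hindbrain cultures were used, which carried H3f3a LSL-K27M-Tag/+ and otherwise the alleles of their WT-Tag counterparts. Tumors are named by tumor number (7 to 11 and 26 to 29) and cultures by experiment id (1 to 3). Age of the tumor-bearing mice and the agent given to induce Cre were not stated in the labels. Receptor allele, Trp53 status, type of Cre, age, growth in tissue or culture and handling of the RNA all differed between the groups in the same way and cannot be told apart.

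PDGF receptor alpha is a tyrosine kinase on oligodendrocyte precursors, and its ligands keep these cells dividing. p53 is a transcription factor that switches on genes of cell cycle arrest and cell death after damage. A glioma in the brain also holds microglia, blood vessels and trapped neurons, whereas a neurosphere is a floating clump of stem and progenitor cells kept in growth factors. Bulk values mix all cells of a sample, so that fewer cells of a type and less RNA per cell cannot be told apart.

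Of 15672 genes tested, 5950 passed an adjusted p of 0.05 (38.0%). Of these, 3831 were higher in tumors (24.4% of the genes tested) and 2119 lower (13.5%), and 2462 higher (15.7%) and 957 lower (6.11%) also changed at least 2-fold. Tumor values lay above every culture for 3163 genes (20.2%) and below every culture for 1433 (9.14%). With culture 1, 2 or 3 left out, 3118, 3548 and 3841 genes passed. The median log2 change over all genes was 0.14. When libraries were scaled to a common FPKM sum it was -0.002, with 53.3% of calls higher in tumors in place of 64.4%, and after quantile normalization it was -0.09, with 40.7% of calls higher. Small changes therefore have to be read relative to this shift. The main axis of variation held 57.4% of the variance and separated the groups, and tumors 9 and 28 lay nearest to the cultures on it. Relative depth ranged from 0.92 to 1.77 in tumors and from 1 to 1.29 in cultures, with culture 1 set to 1. The median SD over genes was 0.39 log2 units in tumors and 0.19 in cultures. Sex-linked transcripts went against the label in 2 tumors. Tumor 8, labelled female, had Xist at 0.031 FPKM, and tumor 9, labelled male, had Xist at 54.5 FPKM and Ddx3y at 0.003 FPKM. Whether these 2 libraries were exchanged was not tested, and tumor 8 and tumor 9 stand for the libraries labelled so. Without both tumors, 6712 genes passed.

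Pdgfra and Cdkn2a were the genes of the model that rose in tumors, while Trp53, H3f3a and Nes were lower. Pdgfra, which encodes PDGF receptor alpha, had 70.9, 126 and 324 FPKM (lowest, median and highest of 9 tumors, a form used throughout) in tumors, against 5.54, 6.7 and 9.4 FPKM in cultures 1, 2 and 3. Every tumor lay above every culture, with a log2 change of 4.10 ± 0.47 (SE) and an adjusted p of 4.4e-05. How far transcripts of the receptor allele add to this value was not tested. Cdkn2a encodes the p53 activator p19Arf and the CDK inhibitor p16Ink4a, which its single value does not separate. It reached 11.1, 41.7 and 107 FPKM in tumors, against 2.71, 2.46 and 1.59 FPKM in cultures, again without overlap (log2 change 3.63 ± 0.53, adjusted p 0.00027). Its neighbor Cdkn2b, another CDK inhibitor, had 2.72, 12.6 and 19.6 FPKM in tumors, against 10.3, 10.1 and 10.4 FPKM in cultures, and did not pass (adjusted p 0.78). Trp53 was at 2.06, 2.44 and 4.83 FPKM in tumors, against 8.37, 4.2 and 5.29 FPKM in cultures. The groups overlapped, and the log2 change was -0.85 ± 0.24 (adjusted p 0.015), a value for the whole gene that does not resolve the floxed part. H3f3a, the tagged histone gene, had 43.7, 59.99 and 111 FPKM in tumors, against 112, 98.8 and 107 FPKM in cultures (log2 change -0.78 ± 0.26, adjusted p 0.031). The other H3.3 gene, H3f3b, had 95.3, 156 and 232 FPKM in tumors and 197, 123 and 167 FPKM in cultures, and its log2 change was 0.02 ± 0.28 (adjusted p 0.96). The call for Trp53 was lost without culture 1, and that for H3f3a without any 1 of the cultures. Nes, an intermediate filament of neural progenitors whose promoter drives the Cre alleles, had 6.15, 19.3 and 83.6 FPKM in tumors, against 109.7, 43.6 and 58.4 FPKM in cultures (log2 change -1.75 ± 0.57, adjusted p 0.028), and did not pass without culture 1 or 3.

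**Figure D1:**
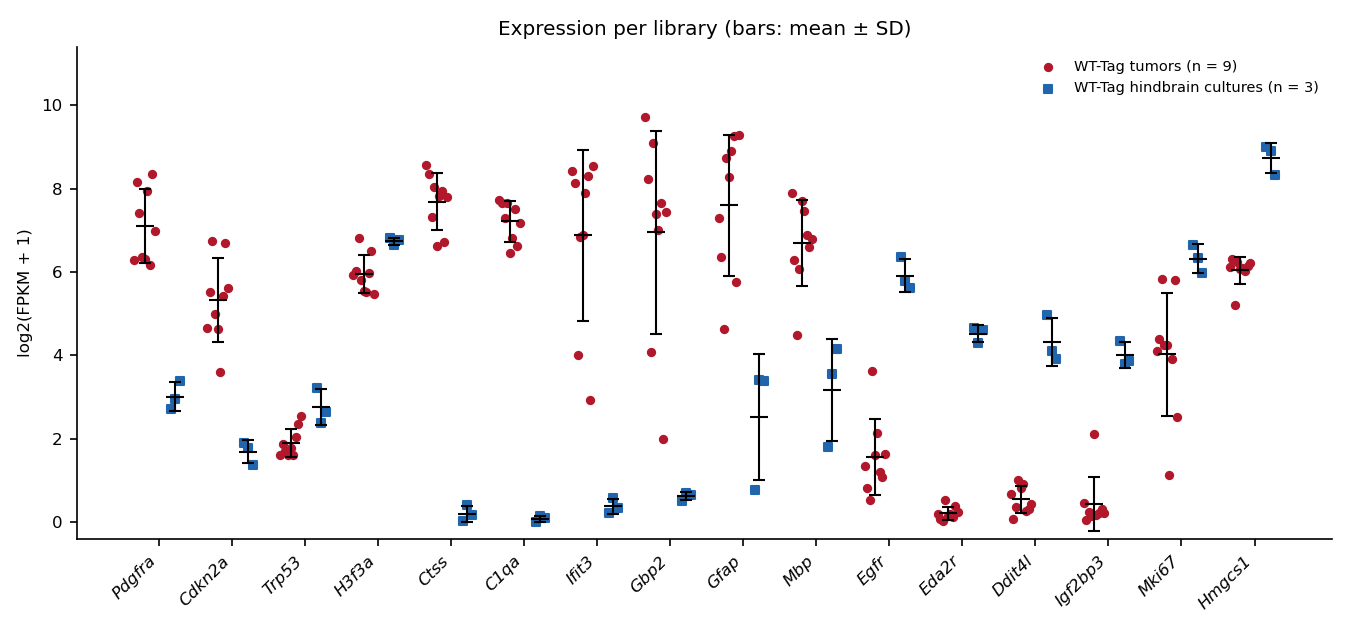
Log2(FPKM + 1) of 16 genes in each WT-Tag tumor (red circles, left of each pair) and each WT-Tag hindbrain culture (blue squares, right), with black bars for the mean ± SD of that scale. Ctss, C1qa and Pdgfra lay higher in every tumor, Egfr, Eda2r and Hmgcs1 lower in every tumor, and the interferon-induced genes Ifit3 and Gbp2 were spread widely among tumors.

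Genes of microglia, blood vessels, mature oligodendrocytes and neurons were mostly higher in tumors than in cultures. All 21 tested microglia and macrophage genes were higher in tumors, with a median log2 change of 3.44 against 0.14 over all genes. Of the 21 genes, 19 were under 1 FPKM in every culture, so they entered the test through the tumors and could hardly come out lower. Ctss, a lysosomal protease of microglia, had 97.7, 228 and 382 FPKM in tumors, against 0.022, 0.325 and 0.117 FPKM in cultures (log2 change 7.49 ± 0.37, adjusted p 4.5e-08). C1qa and C1qb encode chains of the complement starter C1q. C1qa had 86.4, 155 and 213 FPKM in tumors, against 0, 0.10 and 0.066 FPKM in cultures, and C1qb had 45.8, 102 and 165 FPKM in tumors, against 0.027, 0.143 and 0.042 FPKM in cultures. No tumor came near a culture for either gene. P2ry12 and Tmem119, which mark resident microglia, were lower in level, with medians of 13.3 and 17.1 FPKM in tumors and no culture above 0.262 and 0.078 FPKM. Lyz2, a lysozyme of macrophages, ranged from 14 to 267 FPKM among tumors and was at most 0.671 FPKM in cultures. The ligands of the receptor that microglia need to survive were also higher. Csf1 had 6.45, 23.6 and 33.6 FPKM in tumors, against 3.61, 4.05 and 5.09 FPKM in cultures (log2 change 1.89 ± 0.40, adjusted p 0.0033), and Il34 had 2.86, 4.89 and 7.68 FPKM in tumors, against 0.629, 0.701 and 0.453 FPKM in cultures (log2 change 1.89 ± 0.23, adjusted p 5.8e-05). None of the 15 listed lymphocyte and neutrophil genes entered the test, and the T cell gene Cd3e was at most 0.023 FPKM in tumors and 0.072 FPKM in cultures. The summed level of that list was 1.05 to 18 FPKM in tumors and 0.447 to 0.885 FPKM in cultures, with the highest value in tumor 8.

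Vessel genes were also higher. All 14 tested endothelial genes were higher (median log2 change 1.90). All 15 listed were under 1 FPKM in every culture, so the tested genes entered through the tumors and could hardly come out lower. Cldn5, a tight junction protein of brain endothelium, had 10.04, 14.9 and 17.9 FPKM in tumors, against 0.021, 0.037 and 0.016 FPKM in cultures (log2 change 3.91 ± 0.17, adjusted p 1.6e-08). Tumors differed little among themselves for this gene, unlike for Ly6c1, an endothelial surface protein, which spanned 7.56, 39.9 and 211 FPKM in tumors and was at most 0.035 FPKM in cultures. Of 12 pericyte and fibroblast genes, 7 rose, or 4 after quantile normalization, and 8 of the 12 were under 1 FPKM in every culture and entered the test through the tumors. Rgs5, a pericyte regulator of G proteins, was among the 7. Rgs5 had 4.5, 11.2 and 192 FPKM in tumors, against 0.116, 0.091 and 0.125 FPKM in cultures. Its value of 192 FPKM belonged to tumor 27, and the next highest tumor had 17.8 FPKM.

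Mature oligodendrocyte genes were higher in tumors for 14 of 15 members, with a median log2 change of 2.54. Of the 14, 6 were under 1 FPKM in every culture and could hardly come out lower. Mag, a myelin glycoprotein, had 17.8, 37.2 and 216 FPKM in tumors, against 0.314, 2.27 and 3.6 FPKM in cultures (log2 change 4.32 ± 0.65, adjusted p 0.00031). The exception was Aspa, the enzyme that splits N-acetylaspartate, which fell to 0.167, 1.58 and 4.27 FPKM in tumors, against 5.19, 6.13 and 5.85 FPKM in cultures (log2 change -1.43 ± 0.42, adjusted p 0.017). The call for Aspa was lost when any 1 culture was left out. Of 20 neuron genes, 15 rose and none fell, although 10 of the listed genes were under 1 FPKM in every culture and entered the test through the tumors. Nefl, a neurofilament chain, had 2.49, 56.8 and 144 FPKM in tumors, against 0.478, 0.353 and 0.317 FPKM in cultures (log2 change 4.74 ± 0.94, adjusted p 0.0021). Transmitter genes of brainstem neurons were detected as well. Tph2, which makes serotonin, had 0.569, 3.97 and 7.03 FPKM in tumors, against 0.357, 0.225 and 0.087 FPKM in cultures, and Slc6a5, the glycine transporter of inhibitory neurons, had 0.107, 4.71 and 15.8 FPKM in tumors, against 0.012, 0.026 and 0.019 FPKM in cultures. Both calls (adjusted p 0.018 and 0.045) were lost without any 1 of the cultures, and that of Slc6a5 also without tumor 7, 10, 11, 26, 27 or 29. Without any 1 culture, 8 to 9 of the 20 neuron genes passed. Summed over the list, neuron genes were at 142 FPKM in tumor 9, 165 in tumor 8, 172 in tumor 28 and 377 to 816 FPKM in the other tumors, against 113 to 122 FPKM in cultures.

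Genes that mark positions along the neural axis were read in 4 lists. Over all genes tested, 24.4% were higher in tumors and 13.5% lower. Of 16 tested members of the HOX clusters, which give hindbrain and spinal cord cells their position, 6 were higher in tumors and none lower, but 9 of the 16 were under 1 FPKM in every culture and entered the test through the tumors. Hoxa5 had 1.3, 8.08 and 15.1 FPKM in tumors, against 0.031, 0.898 and 2.18 FPKM in cultures (log2 change 2.19 ± 0.52, adjusted p 0.0062). Tumor 8, at the bottom of that range, lay among the cultures, and the call was lost without culture 1. Of the HOX genes, 1 passed without culture 1, 2 without culture 2, 3 in libraries labelled female and 1 after quantile normalization. Summed over the list, the level was 12.9 to 85.7 FPKM in tumors, against 1.56, 7.34 and 18.7 FPKM in cultures 1, 2 and 3, so that culture 3 lay among the tumors. Of 10 tested genes of hindbrain and midbrain identity, 3 were higher, among them En1 and Lmx1b, and 1 was lower (Egr2), shares near those of all genes. The 3 higher genes were under 1 FPKM in every culture and entered the test through the tumors. The number higher was 1 without any 1 of the cultures, without tumor 26 or 29, after quantile normalization or in libraries labelled female, and 5 without tumor 28. Of 12 genes of forebrain identity, only Lhx2 entered the test, through the tumors, and was higher. Among 5 tested genes of cerebellar neurons, 1 was higher and 2 lower. Otx2, a homeobox gene of forebrain, midbrain and choroid plexus, was among the genes with the largest decrease. It was at 0, 0.014 and 0.244 FPKM in tumors, against 16.4, 8.04 and 7.68 FPKM in cultures (log2 change -3.39 ± 0.20, adjusted p 1.6e-07). Zic1, a regulator of dorsal hindbrain progenitors and a member of the cerebellar list, showed 0.184, 1.81 and 4.59 FPKM in tumors, against 13.3, 14.1 and 18.6 FPKM in cultures (log2 change -2.56 ± 0.40, adjusted p 0.00040).

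Interferon-induced genes rose together in tumors, yet by very different amounts from tumor to tumor. Interferons are antiviral cytokines whose receptors activate STAT factors, and these bind the interferon-stimulated response element (ISRE) near target genes. All 22 tested members of the list were higher, each at least 2-fold, with a median log2 change of 4.62. Of the listed genes, 13 were under 1 FPKM in every culture and so could hardly come out lower. Promoters of 3 of the genes are shown because each holds the ISRE letters GAAANNGAAA on 1 of the strands, in capitals. They end at the base before the start of the gene and come from RefSeq, build GRCm38.p6.
Ifit3, chr19:34583359-34583528, plus strand: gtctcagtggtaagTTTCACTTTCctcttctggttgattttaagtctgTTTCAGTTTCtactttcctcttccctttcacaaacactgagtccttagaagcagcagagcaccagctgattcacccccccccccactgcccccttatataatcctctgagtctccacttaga
Gbp2, chr3:142620493-142620662, plus strand: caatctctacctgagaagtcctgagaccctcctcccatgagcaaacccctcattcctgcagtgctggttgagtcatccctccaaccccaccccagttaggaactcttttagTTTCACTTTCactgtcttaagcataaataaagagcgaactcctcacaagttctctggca
Isg15, chr4:156200819-156200988, minus strand: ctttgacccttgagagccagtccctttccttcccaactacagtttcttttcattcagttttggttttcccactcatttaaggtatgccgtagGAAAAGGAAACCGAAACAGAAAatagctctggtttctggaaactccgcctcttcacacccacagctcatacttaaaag
In Isg15 the capitals cover 3 overlapping matches. These letters occurred in the 300 bases around the start of 12 of 18 members of the list with a promoter in the table, against 4.0% of 27025 promoters. A match is a description of the letters and not a measured binding site.

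Ifit3, an antiviral RNA-binding protein, had 6.59, 236 and 375 FPKM in tumors, against 0.168, 0.49 and 0.274 FPKM in cultures (log2 change 6.50 ± 1.06, adjusted p 0.00057). Gbp2, a GTPase against intracellular pathogens, had 2.97, 174 and 847 FPKM in tumors, against 0.432, 0.618 and 0.57 FPKM in cultures (log2 change 6.33 ± 1.25, adjusted p 0.0021). Isg15, a ubiquitin-like protein, had 3.9, 87.3 and 409.9 FPKM in tumors, against 0.194, 0.171 and 0.241 FPKM in cultures (log2 change 5.67 ± 1.03, adjusted p 0.0012). All tumors were above all cultures for these genes, but the lowest tumor value belonged each time to tumor 28. The immunity GTPases Iigp1, Igtp and Gbp11 showed the same range. Iigp1 had 3.61, 181 and 619.7 FPKM in tumors and at most 0.116 FPKM in cultures, Igtp had 5.45, 373 and 503 FPKM in tumors, against 0.668, 1.03 and 1.05 FPKM in cultures, and Gbp11 had 0.875, 149 and 391 FPKM in tumors and at most 0.051 FPKM in cultures. Members of the Ifit, Gbp and MHC families have near-identical copies, so their reads may have been shared. Transcripts of the interferon genes Ifng and Ifnb1 were close to 0, and other interferon genes are not given here. Ifng was at most 0.014 FPKM in tumors and 0.057 FPKM in cultures, and Ifnb1 at most 0.086 FPKM in tumors and 0.101 FPKM in cultures, and neither entered the test.

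Genes of antigen presentation were higher as well. All 11 tested genes of MHC class I presentation were higher in tumors (median log2 change 3.22), and all 7 of class II (median 2.89). Of these, 2 of class I and 5 of class II were under 1 FPKM in every culture. They entered the test through the tumors and could hardly come out lower. H2-D1, a class I heavy chain, had 26.7, 691 and 1302 FPKM in tumors, against 7.62, 5.03 and 4.75 FPKM in cultures (log2 change 5.97 ± 0.95, adjusted p 0.00049). B2m, the chain shared by class I molecules, was well detected in cultures too, at 157, 1192 and 1893 FPKM in tumors and 104, 103 and 92.7 FPKM in cultures (log2 change 3.13 ± 0.63, adjusted p 0.0023). Cd74, the class II invariant chain, had 5.64, 26.9 and 153 FPKM in tumors, against 0, 0 and 0.048 FPKM in cultures. With any 1 culture left out, 7 of 11 class I and 4 of 7 class II genes passed, and after quantile normalization 4 of class II did. Cxcl10, a chemokine induced by interferon, had 2.27, 148 and 529.6 FPKM in tumors, against 0.695, 1.5 and 0.884 FPKM in cultures (log2 change 5.53 ± 1.12, adjusted p 0.0025). In the list of chemokines and receptors, 13 of 17 tested genes rose and 1 fell. Of the 17, 8 were under 1 FPKM in every culture and could hardly come out lower. The number that rose was 8 without culture 1, 8 in libraries labelled female and 6 after quantile normalization. All 12 tested complement genes were higher (median log2 change 3.14). But all 14 listed were under 1 FPKM in every culture, so the tested ones too could hardly come out lower. Microglia, which express many genes of both groups, moved the same way. The 21 microglia and macrophage genes summed to 452 to 1430 FPKM in tumors, against 16.4 to 17.3 FPKM in cultures, and their part in these changes was not tested. C4b, a complement component, had 13.6, 150.2 and 307 FPKM in tumors, against 0.088, 0.228 and 0.36 FPKM in cultures (log2 change 6.53 ± 0.68, adjusted p 2.1e-05). Serpina3n and Apod, both secreted proteins, also stood among the largest increases. Serpina3n, a protease inhibitor, had 124, 338 and 1902 FPKM in tumors, against 0.512, 3.14 and 0.949 FPKM in cultures (log2 change 7.47 ± 0.81, adjusted p 2.8e-05). Apod, a lipid carrier, had 30.4, 176 and 267 FPKM in tumors, against 0.068, 0.392 and 0.203 FPKM in cultures (log2 change 6.80 ± 0.56, adjusted p 3.1e-06). Ly6a, a surface protein of endothelium induced by interferon, had 7.72, 176 and 654 FPKM in tumors and at most 0.036 FPKM in cultures.

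**Figure D2:**
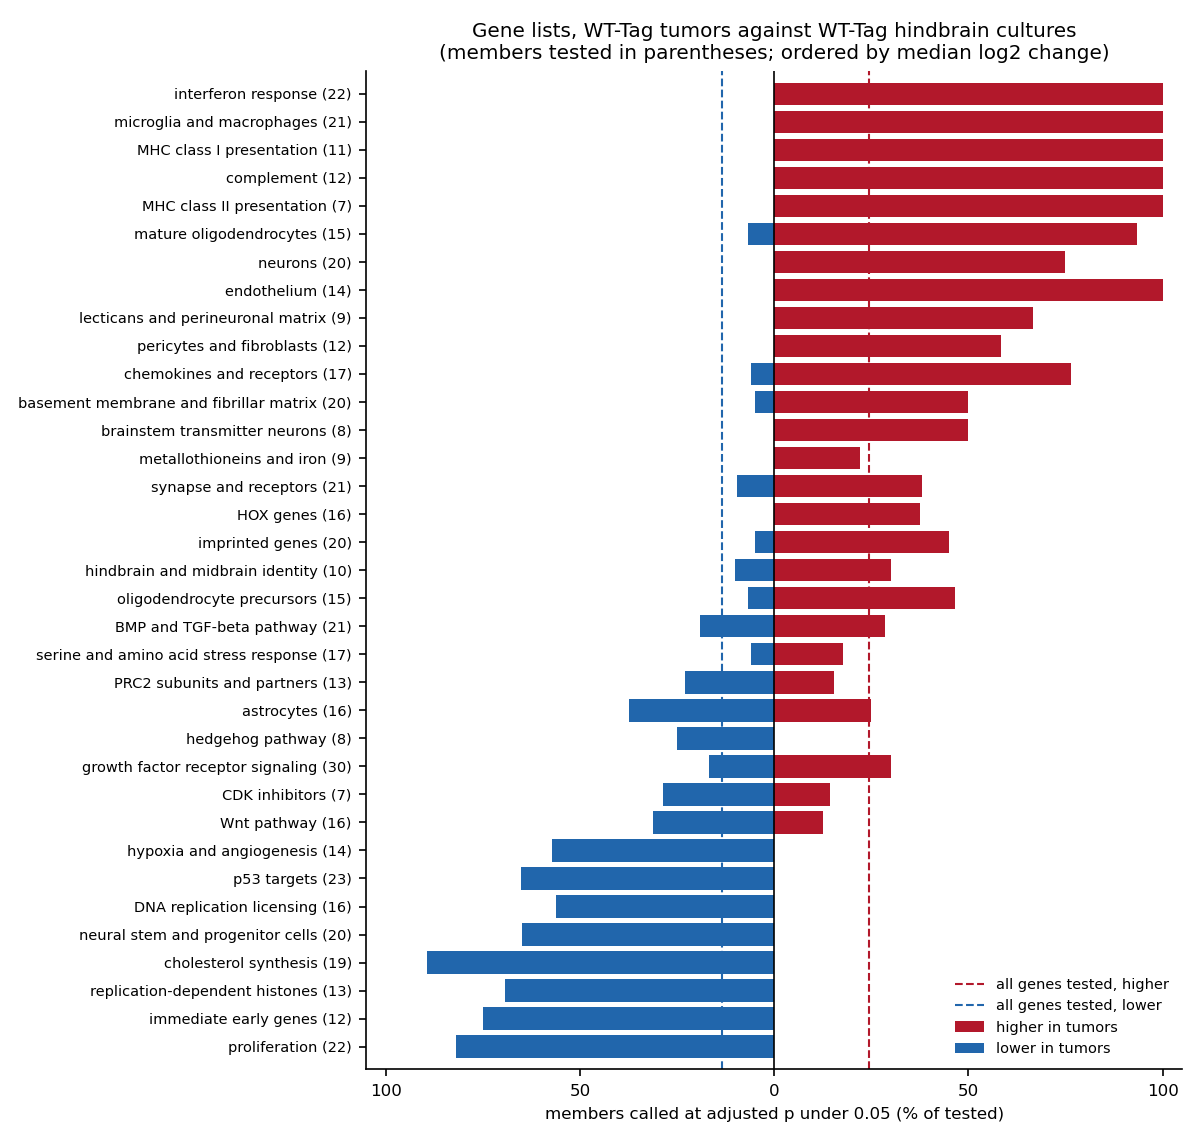
Share of tested members of each list that was higher (red, to the right) or lower (blue, to the left) in WT-Tag tumors than in WT-Tag hindbrain cultures at an adjusted p of 0.05, with the shares over all genes as dashed lines (24.4% and 13.5%). Immune, vessel and mature oligodendrocyte lists lie to the right, and proliferation, cholesterol synthesis, immediate early and p53 target genes to the left.

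Genes of dividing and undifferentiated cells were lower in tumors. Of 22 tested proliferation genes, 18 fell and none rose (median log2 change -2.0), and of 20 neural stem and progenitor genes, 13 fell and none rose (median -1.34). Mki67, a marker of dividing cells, had 1.18, 17.9 and 56.2 FPKM in tumors, against 99.9, 79.4 and 61.8 FPKM in cultures (log2 change -2.30 ± 0.77, adjusted p 0.032). Pcna, the sliding clamp of DNA replication, had 14, 33.1 and 68.2 FPKM in tumors, against 137, 80.1 and 74.1 FPKM in cultures (log2 change -1.51 ± 0.38, adjusted p 0.0089). Every tumor lay below every culture for both genes, although only 4 of the 22 members had no overlap. The calls depended on single cultures. Without culture 1, 2 and 3, 1, 6 and 5 members passed, Mki67 passed in none of these cases, and Pcna did not pass without culture 1. The summed level of the list was 34.9 to 630 FPKM in tumors, against 549 to 1107 FPKM in cultures. Replication-dependent histones are made in S phase. Of 13, 9 fell (median -1.70), and Hist1h1b, a linker histone, had 5.49, 63.1 and 243 FPKM in tumors, against 450.3, 337 and 314 FPKM in cultures, but 0, 2 and 2 members passed without culture 1, 2 and 3.

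Several stem and progenitor genes fell in every tumor. Fabp7, a fatty acid binding protein of radial glia, had 118, 243 and 759 FPKM in tumors, against 1272, 1629.8 and 1461 FPKM in cultures (log2 change -2.54 ± 0.42, adjusted p 0.00067). Hes1 and Hes5 encode repressors switched on by Notch. Hes1 had 2.75, 6.17 and 10.3 FPKM in tumors, against 65.4, 49.8 and 38.3 FPKM in cultures (log2 change -2.79 ± 0.31, adjusted p 3.1e-05), and Hes5 had 1.64, 7.36 and 18.4 FPKM in tumors, against 86.2, 54.7 and 70.8 FPKM in cultures (log2 change -3.22 ± 0.50, adjusted p 0.00042). Pax6, a factor of neural progenitors, was below every culture in all tumors, at a median of 0.202 FPKM. Sox2, a stem cell factor, kept a median of 40.2 FPKM in tumors, against 96.2, 86.8 and 108 FPKM in cultures (log2 change -1.08 ± 0.37, adjusted p 0.033), and the call was lost without any 1 of the cultures. The list counted 7 calls without culture 1 and 7 without culture 3. Egfr, the receptor for the epidermal growth factor used to grow many neurosphere cultures, showed the largest decrease among genes with a name and no overlap. It had 0.44, 1.53 and 11.45 FPKM in tumors, against 80.6, 54.3 and 48 FPKM in cultures (log2 change -4.36 ± 0.49, adjusted p 3.7e-05), and its highest tumor value came from tumor 10. Whether the medium held that factor was not stated.

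Glial lineage genes split. Among 15 genes of oligodendrocyte precursors, 7 rose and 1 fell, against 24.4% and 13.5% of all genes tested. Their median log2 change was 0.32, against 0.14 over all genes. Summed over the list, the level overlapped between the groups, at 823 to 1618 FPKM in tumors and 795 to 990 FPKM in cultures. Sox10, a master factor of the oligodendrocyte lineage, had 3.86, 56.3 and 86.6 FPKM in tumors, against 3.83, 4.46 and 8.28 FPKM in cultures (log2 change 2.78 ± 0.68, adjusted p 0.0074). The lowest value was that of tumor 10, which fell among the cultures, whereas the other 8 tumors had at least 28.8 FPKM. Erbb3, a neuregulin receptor of the same lineage, had 1.12, 26.3 and 66.1 FPKM in tumors and at most 0.125 FPKM in cultures, with tumor 10 again lowest. Olig2, which specifies the lineage, was lower in every tumor, at 34.5, 55 and 90.3 FPKM, against 159, 94.8 and 117 FPKM in cultures (log2 change -1.13 ± 0.29, adjusted p 0.010), but did not pass without culture 1. Lhfpl3, a membrane protein of precursors, had 85, 132 and 264 FPKM in tumors, against 14.7, 38.2 and 54.2 FPKM in cultures (log2 change 2.09 ± 0.37, adjusted p 0.0010). Of 16 astrocyte genes, 4 rose, a share near the 24.4% of all genes tested. In the same list 6 fell, or 3 without any 1 of the cultures, against 13.5% of all genes. Gfap, an intermediate filament of reactive astrocytes, had 23.7, 308 and 624 FPKM in tumors, against 0.703, 9.69 and 9.47 FPKM in cultures (log2 change 5.08 ± 0.96, adjusted p 0.0015). Mlc1, a membrane protein of astrocyte endfeet, and the glutamate transporter Slc1a3 went the other way. Mlc1 had 4.48, 17.2 and 56.5 FPKM in tumors, against 186, 141 and 159 FPKM in cultures (log2 change -3.12 ± 0.58, adjusted p 0.0014), and Slc1a3, with all tumors below all cultures as well, had 14.1, 30.2 and 111 FPKM in tumors, against 203, 232 and 240.4 FPKM in cultures (log2 change -2.51 ± 0.58, adjusted p 0.0052).

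Target genes of p53 were lower in tumors, which carried floxed Trp53 alleles that the cultures lacked. Of 23 tested, 15 fell and none rose, with a median log2 change of -1.06, and 11 lay below every culture in every tumor. The promoters of 2 of them are shown because they hold a match to the p53 half-site, in capitals, upstream of the start (RefSeq, build GRCm38.p6).
Ccng1, chr11:40755287-40755486, minus strand: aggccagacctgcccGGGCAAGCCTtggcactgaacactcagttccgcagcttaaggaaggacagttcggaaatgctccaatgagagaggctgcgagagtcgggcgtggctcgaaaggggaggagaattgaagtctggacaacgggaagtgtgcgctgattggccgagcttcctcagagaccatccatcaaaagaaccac
Ddit4l, chr3:137623472-137623671, plus strand: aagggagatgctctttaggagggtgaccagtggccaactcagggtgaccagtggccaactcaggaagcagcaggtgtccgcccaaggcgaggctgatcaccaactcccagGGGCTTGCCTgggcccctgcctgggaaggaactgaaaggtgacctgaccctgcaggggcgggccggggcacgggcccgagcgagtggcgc
A half-site match was found in 9 of 18 targets with a promoter in the table, against 9.6% of 27025 promoters. Ccng1, cyclin G1, had 10.8, 14.7 and 17.6 FPKM in tumors, against 119.7, 118 and 142 FPKM in cultures (log2 change -3.08 ± 0.17, adjusted p 7.2e-08). Ddit4l, an inhibitor of mTOR signaling, had 0.052, 0.359 and 1.0 FPKM in tumors, against 30.6, 16.2 and 14 FPKM in cultures (log2 change -3.78 ± 0.25, adjusted p 4.2e-07). Eda2r, a receptor of the TNF family, had 0.021, 0.136 and 0.445 FPKM in tumors, against 24.4, 18.6 and 23.4 FPKM in cultures (log2 change -4.31 ± 0.16, adjusted p 4.0e-09). No tumor came near a culture for these genes. Btg2, an antiproliferative protein, had 2.1, 4.68 and 5.8 FPKM in tumors, against 67.8, 72 and 72.9 FPKM in cultures (log2 change -3.83 ± 0.25, adjusted p 3.4e-07), and Trp53inp1, a p53-induced nuclear protein, had 3.85, 8.0 and 14.9 FPKM in tumors, against 40.8, 40.6 and 46.6 FPKM in cultures (log2 change -2.23 ± 0.30, adjusted p 0.00015). The cultures were close to each other for both. Bax, which promotes cell death, had 17.4, 26.3 and 34.7 FPKM in tumors, against 73, 44.5 and 55.2 FPKM in cultures (log2 change -1.11 ± 0.23, adjusted p 0.0028). Other well-known targets overlapped between the groups. Cdkn1a, the CDK inhibitor p21, had 8.62, 12.5 and 41.6 FPKM in tumors, against 42.7, 32.7 and 38.3 FPKM in cultures (log2 change -1.44 ± 0.36, adjusted p 0.0075), and tumor 29, at the top of that range, lay among the cultures. This call was lost in libraries labelled female, where 7 of the 23 targets passed. Mdm2, which degrades p53, had 9.61, 14.2 and 16.9 FPKM in tumors, against 14.8, 11 and 13.6 FPKM in cultures, with a log2 change of 0.06 ± 0.18 (adjusted p 0.80). Psrc1, a spindle protein outside these lists, had 0.085, 1.37 and 5.03 FPKM in tumors, against 43.5, 22.5 and 30.7 FPKM in cultures. Cdkn2c, the CDK inhibitor p18, had 1.43, 3.56 and 10.6 FPKM in tumors, against 46.5, 23.6 and 24.3 FPKM in cultures (log2 change -2.47 ± 0.43, adjusted p 0.00091).

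Sterol synthesis was another group that was lower in tumors as a block. Of 19 tested genes, 17 fell and none rose, with a median log2 change of -1.65, and 13 lay below every culture in every tumor. The promoter of Hmgcs1 is shown because it holds both the CCAAT box (CCAAT, or ATTGG on the other strand) and the sterol response element letters TCACNNCAC, in capitals.
Hmgcs1, chr13:119690151-119690350, plus strand: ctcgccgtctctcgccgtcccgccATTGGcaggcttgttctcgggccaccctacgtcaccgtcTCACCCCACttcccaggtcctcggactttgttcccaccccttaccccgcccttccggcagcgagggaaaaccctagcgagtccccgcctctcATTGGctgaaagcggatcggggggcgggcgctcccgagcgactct
The CCAAT letters occurred in all 13 members with a promoter in the table, against 41.1% of all promoters, and the sterol element in 4 of 13, against 4.4%. Hmgcs1, which makes HMG-CoA, had 36, 68.3 and 78.4 FPKM in tumors, against 509, 479.5 and 319 FPKM in cultures (log2 change -2.70 ± 0.23, adjusted p 3.2e-06). Apart from tumor 9, at the bottom of that range, the tumors were close to each other. Idi1, an isomerase of the pathway, had 6.16, 7.95 and 11.6 FPKM in tumors, against 50.6, 43.8 and 34.7 FPKM in cultures (log2 change -2.28 ± 0.19, adjusted p 3.3e-06).

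Immediate early genes, which growth factors and handling switch on within minutes, fell for 9 of 12 members (median log2 change -1.86). Fos and Fosb encode partners of the AP-1 factor. Fos had 12.6, 40.8 and 58.3 FPKM in tumors, against 253, 305 and 307 FPKM in cultures (log2 change -3.03 ± 0.40, adjusted p 0.00011), and Fosb had 0.096, 0.203 and 1.58 FPKM in tumors, against 15.3, 14 and 14.4 FPKM in cultures (log2 change -3.55 ± 0.24, adjusted p 4.2e-07). No tumor reached a culture for either gene. Tumor 29, at the top of the range for both, was still far below them. Of 14 genes of hypoxia and angiogenesis, 8 fell and none rose. Vegfa, the main growth factor of vessels, had 9.05, 17 and 22.7 FPKM in tumors, against 61.9, 33 and 83.4 FPKM in cultures (log2 change -1.78 ± 0.32, adjusted p 0.0011). Ldha, lactate dehydrogenase, had 37.1, 77.6 and 182 FPKM in tumors, against 281, 214 and 298 FPKM in cultures (log2 change -1.56 ± 0.39, adjusted p 0.0083).

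Of 30 growth factor signaling genes, 9 were higher and 5 lower, shares near the 24.4% and 13.5% of all genes tested. Besides Pdgfra and Erbb3, the stem cell factor receptor Kit was higher, at 3.71, 8.93 and 14.9 FPKM in tumors, against 0.423, 0.783 and 1.12 FPKM in cultures (log2 change 2.34 ± 0.34, adjusted p 0.00024). The ligand Pdgfa had 5.34, 11 and 19.98 FPKM in tumors, against 2.1, 3.55 and 4.91 FPKM in cultures (log2 change 1.48 ± 0.36, adjusted p 0.0071), and did not pass without culture 1, where 4 genes of the list were higher. Pdgfra and its ligand Pdgfa thus both lay above every culture in all tumors. Spry2, a feedback inhibitor of receptor tyrosine kinases, had 20.8, 25 and 73 FPKM in tumors, against 123, 96.3 and 103 FPKM in cultures (log2 change -1.83 ± 0.33, adjusted p 0.0011). Igfbp2, which binds insulin-like growth factors, had 16.7, 33.2 and 118 FPKM in tumors, against 673, 378 and 433 FPKM in cultures (log2 change -3.51 ± 0.51, adjusted p 0.00026). Igf2bp3, a fetal RNA-binding protein, had 0.035, 0.165 and 3.33 FPKM in tumors, against 19.5, 12.9 and 13.5 FPKM in cultures (log2 change -3.57 ± 0.36, adjusted p 1.6e-05). The value of 3.33 FPKM was that of tumor 11, and no other tumor exceeded 0.373 FPKM. All tumors lay below all cultures for Igfbp2 and Igf2bp3. Smo and Gas1, signal transducer and co-receptor of the hedgehog pathway, were the only 2 of its 8 tested genes to pass. Both were lower, where 38.0% of all genes tested passed and 13.5% were lower. The list had a median log2 change of -0.16, against 0.14 over all genes. Smo had 3.41, 7.12 and 14.2 FPKM in tumors, against 35.3, 24 and 27.9 FPKM in cultures (log2 change -1.89 ± 0.31, adjusted p 0.00063). The remaining large decreases among named genes were in Chst7, a sulfotransferase, at 0.324, 0.859 and 2.23 FPKM in tumors and 37.8, 16.3 and 22.7 FPKM in cultures, in Car3, a carbonic anhydrase, at 0.020, 0.151 and 0.739 FPKM in tumors and 30.3, 9.08 and 7.1 FPKM in cultures, and in Rpl29, a ribosomal protein with many near-identical copies, at 9.25, 18.4 and 80.3 FPKM in tumors and 291, 267 and 244 FPKM in cultures.

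Imprinted genes are expressed from 1 parental copy, and 9 of 20 tested rose while 1 fell, or 5 rose without culture 1. Of the 9, 5 were under 1 FPKM in every culture and could hardly come out lower. Over all genes tested, 24.4% were higher and 13.5% lower, and without culture 1, 2256 of 15595 genes were higher. The noncoding transcripts Meg3 and Rian lie in the same imprinted cluster. Meg3 had 7.04, 37.1 and 59.97 FPKM in tumors, against 0.039, 0.086 and 0.171 FPKM in cultures (log2 change 4.78 ± 0.56, adjusted p 4.9e-05), and Rian had 15.3, 42.2 and 53.8 FPKM in tumors, against 0.226, 0.465 and 0.708 FPKM in cultures (log2 change 4.67 ± 0.33, adjusted p 6.5e-07). H19, from another cluster, had 19.2, 58 and 361 FPKM in tumors, against 2.59, 4.86 and 3.89 FPKM in cultures (log2 change 3.63 ± 0.75, adjusted p 0.0028). All 3 transcripts were above every culture in every tumor. Of 20 matrix genes 10 rose, or 5 without culture 1 and 6 after quantile normalization, and 1 fell. After quantile normalization, 1986 of all 15672 genes tested were higher. Of the 20 matrix genes, 7 were under 1 FPKM in every culture. Sparc, a collagen-binding glycoprotein, had 116, 236 and 361 FPKM in tumors, against 19.4, 17.7 and 26.7 FPKM in cultures (log2 change 3.32 ± 0.30, adjusted p 7.1e-06). Spp1, osteopontin, had 38.3, 135 and 524 FPKM in tumors, against 10.2, 6.28 and 4.27 FPKM in cultures (log2 change 4.29 ± 0.60, adjusted p 0.00019). Tnc, a matrix protein of progenitors and gliomas, was the member that fell, with 3.82, 12.1 and 71.1 FPKM in tumors, against 105.1, 64.6 and 142 FPKM in cultures (log2 change -2.48 ± 0.71, adjusted p 0.016), and it did not pass without culture 1 or 3. Among neurotransmitter receptors, 8 of 21 synapse genes rose and 2 fell, against 24.4% and 13.5% of all genes tested. Of the 21, 8 were under 1 FPKM in every culture. Without culture 1, 2 and 3, 4, 5 and 5 rose. One that fell was Grm5, a glutamate receptor, at 6.28, 12.1 and 33.2 FPKM in tumors and 72.3, 60.6 and 54.4 FPKM in cultures (log2 change -2.16 ± 0.38, adjusted p 0.00091).

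The 15 largest decreases without overlap were all in gene models that have no name. They were summed after their values had been seen. In WT-Tag tumors the 15 models summed to 23.2 to 521 FPKM, against 17127, 42579 and 23356 FPKM in WT-Tag hindbrain cultures, where they took 2.55, 4.95 and 3.22% of all FPKM. K27M hindbrain cultures stood between, at 5872, 8527 and 4566 FPKM. Forebrain cultures reached 26743, 38860 and 39631 FPKM with K27M, against 19147, 35830 and 37895 FPKM with WT-Tag. Part of 1 model is shown because its bases recur. Capitals mark runs of 20 bases found in all 11 of the models that GENCODE M21 holds, and the stretch is bases 1 to 150 of the 660-base transcript, from chr2:98666547-98667301 on the minus strand of GRCm38.
Gm10800: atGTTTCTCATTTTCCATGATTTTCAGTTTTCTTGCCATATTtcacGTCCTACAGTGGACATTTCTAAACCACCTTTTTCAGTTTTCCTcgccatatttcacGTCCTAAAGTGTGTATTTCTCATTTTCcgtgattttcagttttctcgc
Such shared runs covered 54.4% of this transcript, and within it repeated runs of 20 bases were most often spaced 225 bases apart. Of the 11 models, 2 lay on chromosome 2 and 9 on chromosome 9. Reads of repeated sequence can be assigned to any copy, so the models are given as a sum.

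Tumors differed from each other far more for some genes than for others. Among called genes with a mean of at least 10 FPKM in tumors, the 8 most even varied by at most 8.57% among tumors. Dync1h1, the dynein heavy chain, had 68.7, 75.1 and 84.5 FPKM in tumors, against 43.4, 27 and 40.7 FPKM in cultures (log2 change 1.05 ± 0.16, adjusted p 0.00032), with a coefficient of variation of 7.55% among tumors. Ndufv2, Uqcr10 and Ndufa13, of the respiratory chain, varied by 6.82, 8.3 and 8.57% among tumors and were all lower than in cultures. Nap1l4, Rab11a, Canx and Wnk1 completed the 8, with values of 7.75, 7.76, 7.84 and 8.28%. Among the most uneven genes, 1 or 2 tumors held most of the signal. Mgp, a matrix Gla protein, reached 1584 FPKM in tumor 27, with 10.3 to 157 FPKM in the other tumors, against 0.196, 1.13 and 0.837 FPKM in cultures. Acan, the proteoglycan aggrecan, reached 83.2 FPKM in tumor 27 and 54.8 in tumor 29, with at most 6.71 FPKM in the others, against 0.128, 0.063 and 0.124 FPKM in cultures. H2-Eb1, an MHC class II chain, was at 72.3 FPKM in tumor 29 and at 1.76 to 21.6 FPKM in the others. The chemokine Ccl8 was at 57.2 FPKM in tumor 29 and 45.4 in tumor 7, while all cultures were listed at 0. Gvin1, an interferon-induced GTPase, was at 55.5 FPKM in tumor 7 and at most 25.6 FPKM in the other tumors. Neu4, a sialidase, was at 60.5 FPKM in tumor 26 and at most 15.8 FPKM in the others. Elfn2, a synaptic adhesion protein, was at 66.3 FPKM in tumor 28 and at most 12.4 FPKM in the others. The calls for Acan, H2-Eb1, Ccl8 and Rab11a were lost without any 1 of the cultures, and those for Gvin1, Neu4, Canx and Nap1l4 without culture 1. Without culture 2, those for Gvin1 and Elfn2 were lost. In libraries labelled female, those for Acan, Ccl8, Rab11a, Gvin1, Canx and Nap1l4 were lost. Quantile normalization removed those for Acan, H2-Eb1 and Canx, and a common FPKM sum those for Rab11a and Wnk1. Without the filter, Acan and Ccl8 did not pass, and in the fit of 4 groups Rab11a and Wnk1 did not. Acan also did not pass without tumor 8, 11 or 26.

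Receptor and ligand genes stood out in 2 tumors. Met, the receptor for hepatocyte growth factor, was at 1368 FPKM in tumor 9 and at 0.185 to 2.08 FPKM in the other tumors, against 0.087, 0.366 and 0.416 FPKM in cultures. Pdgfb, a ligand of PDGF receptors, was at 269 FPKM in tumor 28 and at 1.13 to 2.17 FPKM in the other tumors, against 0.211, 0.195 and 0.070 FPKM in cultures. Neither gene passed the test, with adjusted p values of 0.35 and 0.19, but Met was called without tumor 9 and Pdgfb without tumor 28. Chosen after their values had been seen, the genes next to each were then read in the order of RefSeq GRCm38.p6. Of the 6 expressed genes on each side of Met on chromosome 6, 1 of 12 was above every other tumor in tumor 9 (Tes, at 5.63 FPKM, against at most 2.22). For Pdgfb on chromosome 15, 5 of 12 were above every other tumor in tumor 28, all on the same side. That side belonged to a longer stretch, whose ends were picked after the values had been seen. Both end genes are themselves high in tumor 28, so the counts describe the stretch and do not test it. From 1110038F14Rik to Pdgfb, 38 of 60 expressed genes were higher in tumor 28 than in any other tumor and 33 were at least 2 times as high as the highest of the others. Over the stretch the median ratio of tumor 28 to the median of the others was 3.05, against 0.924 over all 13869 genes considered. Eif3l, a translation factor subunit, had 722 FPKM in tumor 28 and 33.8 to 89.7 FPKM in the other tumors. Mpst, a sulfurtransferase, had 184 FPKM in tumor 28 and 8.24 to 19.6 FPKM in the others. Gtpbp1, a GTPase, had 115 FPKM in tumor 28 and 11.7 to 15.1 FPKM in the others, and Elfn2, named above, lay in the same stretch. In all, 44 of the 103 genes at least 2 times as high in tumor 28 as in every other tumor lay on chromosome 15, or 42.7%, where 3.95% of the genes considered lie. A further 10 of the 44 lay near the start of that chromosome's order, from Rpl37 to Drosha, and the remaining gene was Myc, a growth regulator, at 72 FPKM in tumor 28 and 2.56 to 25.1 FPKM in the others. DNA copy number was not measured in these data.

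**Figure D3:**
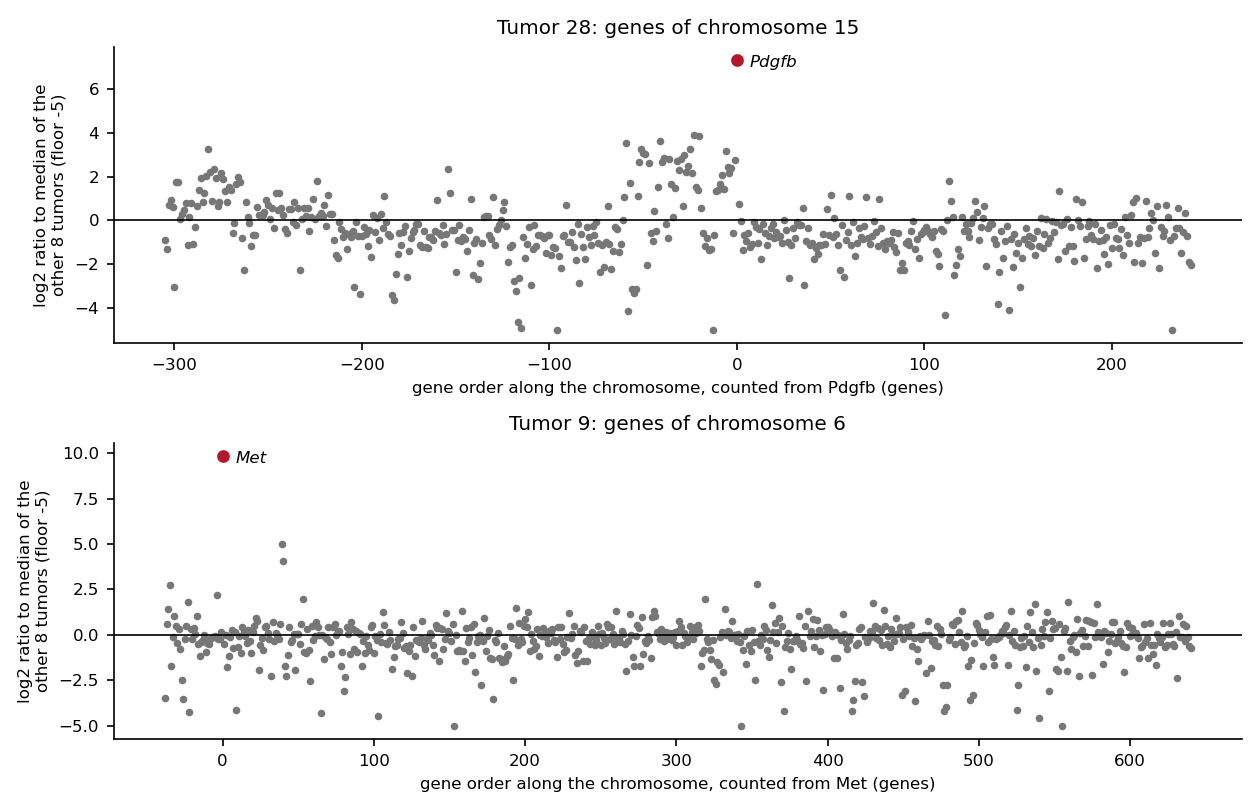
Ratio of 1 tumor to the median of the other 8 (log2, values under -5 drawn at -5) for expressed genes in their order along the chromosome, with tumor 28 around Pdgfb on chromosome 15 (top) and tumor 9 around Met on chromosome 6 (bottom). In tumor 28 a block of genes before Pdgfb, and a second near the start, are raised, whereas in tumor 9 the genes next to Met scatter around 0.

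Tumors 9 and 28 also stood apart in the lists. Their interferon sums of 314 and 106 FPKM were the lowest, against 1185 to 4124 FPKM in the other tumors and 44.8 to 64.1 FPKM in cultures. Their MHC class I sums of 638 and 233 FPKM were lowest as well, against 1188 to 3852 FPKM in the other tumors and 137 to 163 FPKM in cultures. Their proliferation sums of 630 and 472 FPKM were the highest, against 34.9 to 196 FPKM in the other tumors and 549 to 1107 FPKM in cultures. Microglial sums did not separate them, at 1088 FPKM in tumor 9 and 579 in tumor 28, against 452 to 1430 FPKM in the other tumors. At the other end, tumor 26 had the lowest proliferation sum, 34.9 FPKM, with Mki67 at 1.18 FPKM, and tumor 29 followed at 57.3 FPKM. Tumor 10, the one low in Sox10 and Erbb3, had an Aqp4 level of 250 FPKM, against 7.47 to 78.2 FPKM in the other tumors; Aqp4 is the water channel of astrocytes. Tumor 26 alone had much Ttr, a choroid plexus carrier, at 122 FPKM, against at most 9.17 FPKM in the other tumors and 0.819, 20.6 and 17.4 FPKM in cultures.

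**Figure D4:**
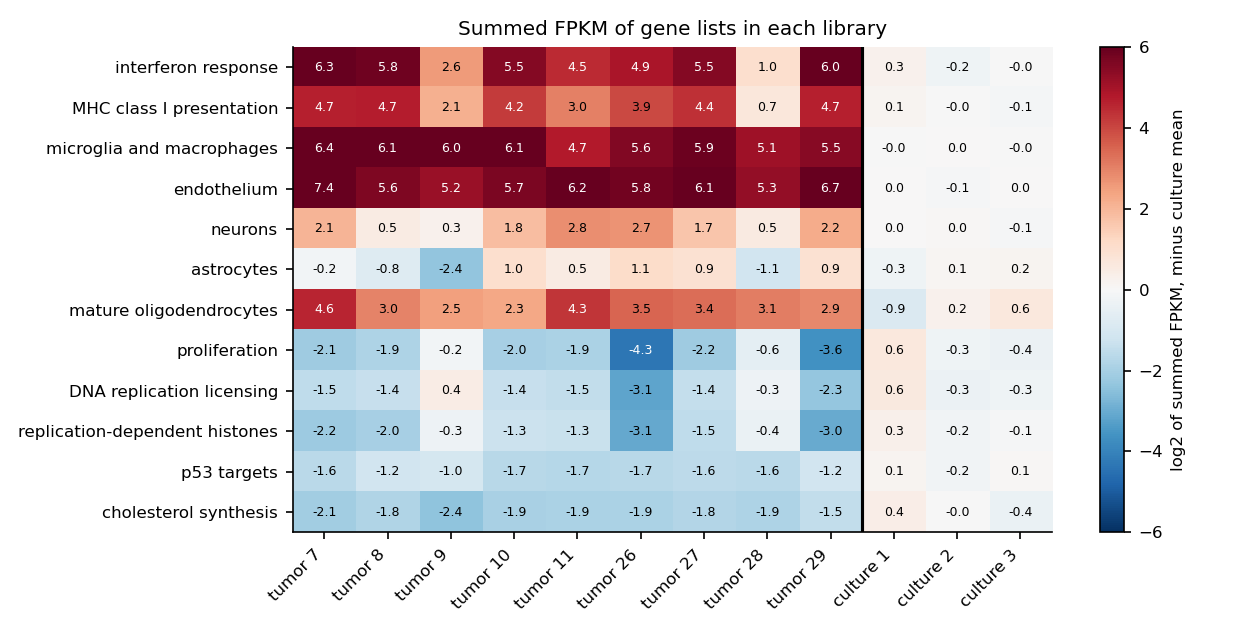
Log2 of the summed FPKM of 12 gene lists in each library, minus the mean of the 3 cultures, with tumors to the left of the black line and cultures to the right. Tumors 9 and 28 combine the lowest interferon and MHC class I sums with the highest proliferation, licensing and histone sums among tumors.

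Whether a tumor-culture difference was particular to wild-type H3.3 was tested as the difference between the K27M and WT-Tag contrasts in 35 libraries. Of 16721 genes, 64 passed (0.383%), 31 with a positive difference (0.185%) and 33 with a negative one (0.197%), and 1253 were under an unadjusted p of 0.05. The positive ones included unnamed gene models, among them Gm10715, Gm10716, Gm10717, Gm10719 and Gm10720. Whether these models share reads was not tested, so they may not be separate results. The count of genes was 20 without WT-Tag culture 3 and 157 without WT-Tag culture 1. Igf2bp1, a fetal RNA-binding protein, had 0, 0.0055 and 0.014 FPKM in K27M tumors and 2.39, 2.64 and 3.07 FPKM in the 3 K27M cultures (from low to high, as for the genes after it), and 0.0020, 0.0040 and 0.012 FPKM in WT-Tag tumors and 0.012, 0.032 and 0.016 FPKM in WT-Tag cultures (difference -1.85 ± 0.10, adjusted p 9.7e-16). Foxb1, a forkhead factor, had 0, 0.071 and 0.563 FPKM in K27M tumors and 5.69, 6.13 and 6.14 FPKM in K27M cultures, and 0, 0.053 and 0.195 FPKM in WT-Tag tumors and 2.54, 1.39 and 1.02 FPKM in WT-Tag cultures (difference -1.35 ± 0.19, adjusted p 0.00020). This difference did not pass with a pseudocount of 0.1 in place of 1 (adjusted p 0.588). Dkk3, a secreted Wnt modulator, had 7.03, 19.1 and 35.7 FPKM in K27M tumors and 11.5, 12.4 and 17.1 FPKM in K27M cultures, and 9.77, 21.7 and 52.3 FPKM in WT-Tag tumors and 2.48, 0.927 and 1.68 FPKM in WT-Tag cultures (difference -2.84 ± 0.45, adjusted p 0.00073). For Dkk3 the tumor-culture contrast itself was 0.34 with K27M and 3.19 with WT-Tag. Htr3a, a serotonin-gated channel, Adamts3, a protease, Rbm24, an RNA-binding protein, Otx1, a homeobox factor, and Fndc3c1 were the other named genes with a negative difference, of -2.07 ± 0.34, -1.99 ± 0.33, -1.37 ± 0.23, -0.98 ± 0.15 and -2.58 ± 0.23.

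With a positive difference, S100b, a calcium-binding protein of glia, had a larger contrast with K27M. It had 64.6, 142 and 224 FPKM in K27M tumors and 2.63, 2.65 and 2.77 FPKM in K27M cultures, and 35.6, 96.8 and 149 FPKM in WT-Tag tumors and 7.95, 16.5 and 16 FPKM in WT-Tag cultures (difference 2.52 ± 0.45, adjusted p 0.0023). Apoe, the main lipid carrier of the brain, had 487, 839.9 and 1277 FPKM in K27M tumors and 44.2, 53.7 and 91.9 FPKM in K27M cultures, and 404, 920.2 and 1617 FPKM in WT-Tag tumors and 135, 476 and 772 FPKM in WT-Tag cultures (difference 2.52 ± 0.51, adjusted p 0.0099). Within WT-Tag alone the change in Apoe was 1.23 ± 0.48 (adjusted p 0.059). It passed in the fit of 4 groups (adjusted p 0.0081), with a spread per group (0.040), after quantile normalization (0.022) and without tumor 28 or culture 3 (0.029 and 0.028). Lcat, which esterifies cholesterol, had 4.72, 16 and 27.9 FPKM in K27M tumors and 0.77, 0.785 and 0.789 FPKM in K27M cultures, and 4.15, 7.12 and 13.1 FPKM in WT-Tag tumors and 2.87, 5.2 and 10.9 FPKM in WT-Tag cultures (difference 2.80 ± 0.52, adjusted p 0.0041). Nebl, an actin-binding protein, had a difference of 2.01 ± 0.34 (adjusted p 0.0013), Tiam2, a Rac activator, of 1.81 ± 0.33, Slc30a10, a manganese transporter, of 1.51 ± 0.31, Rps6ka1, a kinase downstream of ERK, of 1.18 ± 0.24, and Wdfy1 of 1.08 ± 0.22. The differences for Apoe and Slc30a10 did not pass without WT-Tag culture 2 or 3 or K27M culture 1 or 2, those for Lcat and Tiam2 without WT-Tag culture 3, that for Rps6ka1 without WT-Tag culture 3 or K27M culture 2, and that for Wdfy1 without WT-Tag culture 3 or K27M culture 1 or 2. Those for Rps6ka1 and Wdfy1 also did not pass at a common FPKM sum (adjusted p 0.099 and 0.148), nor that for Slc30a10 with a pseudocount of 0.1 (adjusted p 0.096).

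**Figure D5:**
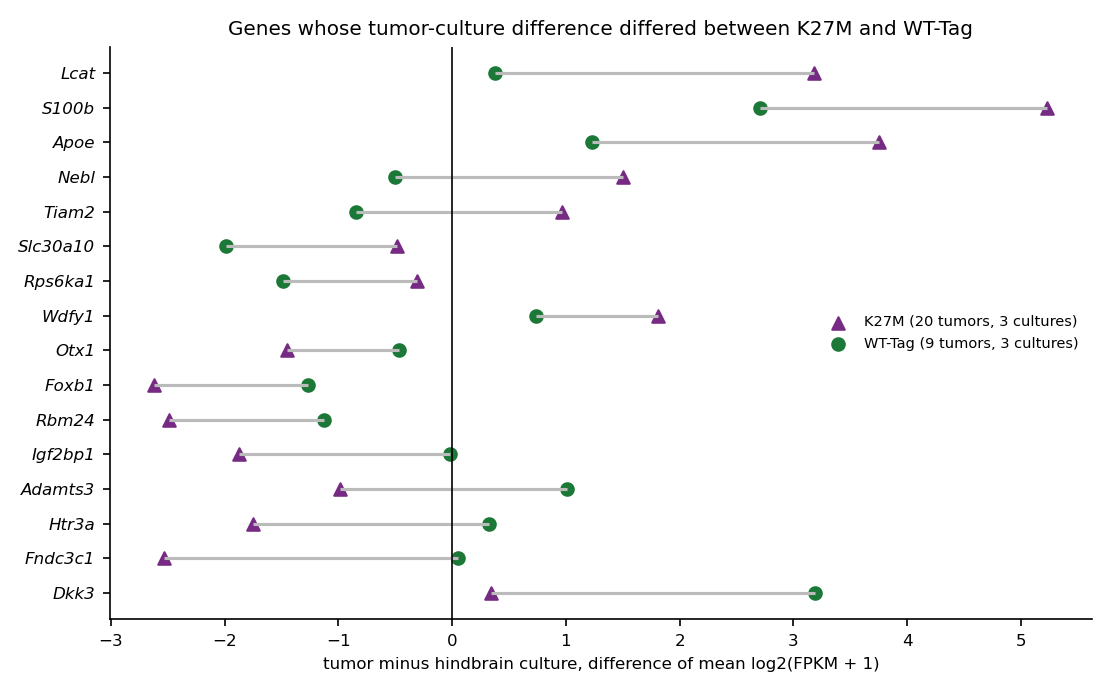
Tumor minus hindbrain culture, in mean log2(FPKM + 1), for 16 genes that passed the test of the difference, in K27M (purple triangles) and in WT-Tag (green circles). Dkk3 lies at 0.34 in K27M and 3.19 in WT-Tag, and Lcat and Apoe lie further to the right in K27M.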

How the data were processed

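RNA was measured by stranded total RNA sequencing. Per the labels' protocols, tumor pieces were snap frozen and dissociated mechanically, RNA was taken up in Trizol, and spike-in RNA was added to the cultured cells. The authors deposited gene-level FPKM values (fragments per kilobase of gene and of library depth) for 34591 entries. Per the submitters' processing notes, the tools were CASAVA, STAR and TopHat2 and the genome was mouse mm9, with no roles stated. The sources used here do not give how genes were counted, from which annotation, or whether strand was used. Values of genes that overlap, lie antisense or have near-identical copies are therefore uncertain.

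Values were taken as log2(FPKM + 1), which understates the change of low genes. Genes at 1 FPKM or more in at least 3 of the 12 libraries were tested with limma 3.58.1 (moderated two-sided test with a mean-variance trend, R 4.3.3), adjusted over all genes by Benjamini and Hochberg. A called gene had an adjusted p of 0.05 or less. The difference between K27M and WT-Tag contrasts was fitted over all 4 groups. Per the labels, K27M and WT-Tag cultures share experiment ids 1 to 3. Deviations of same-numbered cultures from their group means had a Pearson r of 0.38, 0.14 and 0.40 across 16721 genes. Between cultures of different number r ranged from -0.32 to 0.083. Whether the numbers pair the cultures was not tested further, and the main fit of the difference held no block for them. The labels do not say that libraries came from separate animals or cultures, so p-values measure the spread between these samples, which may be technical. Read totals are not known from FPKM values, and relative depth was read from the step between low values.

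Genes named by rule were the 12 largest changes without overlap in each direction, the 8 most and 8 least variable called genes among tumors (mean of at least 10 FPKM), and the 8 largest called differences in each direction. Unnamed models were set aside from this rule. The other named genes come from 43 gene lists, of which 670 of 673 entries were found. Members and lists were chosen with earlier results of these data known. Matches to motifs were searched on both strands from 250 bases before to 50 after each gene start. The fit was tested on simulated data. Alternatives covered scaling, pseudocount, filter, spread, sex, the choice of cultures and each library left out.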

Additional observations from a re-analysis of the deposited data

Results flagged for a closer look

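Single tumors stood far from the other 8 in 23 of the 193 genes and list sums looked at. For values not picked beforehand, chance gives about 1 in 20. Some of these genes were named for their spread among tumors, so the count cannot be set against that rate. Tumor 28 was high for Pdgfb at 269 FPKM (others up to 2.17), Eif3l at 722 (up to 89.7), Mpst at 184 (up to 19.6), Gtpbp1 at 115 (up to 15.1), Cbx7, a Polycomb protein, at 11 (up to 2.76), and Elfn2 at 66.3 (up to 12.4). Igf2bp1 was flagged as well, at 0.012 (up to 0.005), but all its tumor values were near 0 and far under the filter of 1 FPKM. Eif3l, Mpst, Gtpbp1 and Cbx7 were read because they lie near Pdgfb on chromosome 15, as Elfn2 also does, so these values are not separate evidence. The summed imprinted genes were low in the same tumor, at 254 FPKM against at least 496 in the others.

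Tumor 9 was high for Met at 1368 FPKM (others up to 2.08), Mest at 329 (up to 24) and Tes at 5.63 (up to 2.22). It was low for Hmgcs1 at 36.02 FPKM (others at least 64.3) and for the summed lecticans, which are matrix proteoglycans, and perineuronal matrix genes at 189 FPKM (others at least 318). Tumor 10 was low for Sox10 at 3.86 FPKM (others at least 28.8) and Erbb3 at 1.12 (others at least 13.6).

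In tumor 29, Cdkn1a was at 41.6 FPKM (others up to 16.3) and Fosb at 1.58 (up to 0.522). In tumor 26, Ttr was at 122 FPKM (others up to 9.17), and it made up most of the summed ependyma and choroid plexus genes at 135 FPKM (others up to 14.6). Rgs5 was at 192 FPKM in tumor 27 (others up to 17.8) and Igf2bp3 at 3.33 in tumor 11 (others up to 0.373). Tumor 8 had a sum of 18 FPKM for lymphocyte and neutrophil genes (others up to 5.12), and 6.93 FPKM for the sex-linked genes (others at least 24.9), and is 1 of the 2 tumors whose labelled sex these genes go against.

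The K27M contrast minus the WT-Tag contrast passed its test for 18 of the genes named here. It was positive for Lcat (2.80), S100b (2.52), Apoe (2.52), Nebl (2.01), Tiam2 (1.81), Slc30a10 (1.51), Rps6ka1 (1.18) and Wdfy1 (1.08), all on the log2 scale. It was negative for Dkk3 (-2.84), Fndc3c1 (-2.58), Htr3a (-2.07), Adamts3 (-1.99), Igf2bp1 (-1.85), Pmaip1, a p53 target of cell death (-1.63), Rbm24 (-1.37), Foxb1 (-1.35), Tgfbr2, a receptor for TGF-beta (-1.18), and Otx1 (-0.98). Pmaip1 and Tgfbr2 were looked at because they belong to lists used here, and the difference of Tgfbr2 was lost without K27M culture 1, 2 or 3, WT-Tag culture 2 or 3, or WT-Tag tumor 8, 9 or both, at a common FPKM sum and after quantile normalization. That of Pmaip1 was lost after quantile normalization (adjusted p 0.066).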

How the results depend on the processing

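The number of genes that passed depended on single cultures. With 1 library left out at a time, the total was 3118 (without culture 1) to 6718 (without tumor 9), with 2219 (without culture 2) to 4317 (without tumor 28) higher, 862 (without culture 1) to 2550 (without tumor 9) lower, 1772 to 2703 higher at least 2-fold and 555 to 1117 lower at least 2-fold, and the difference between contrasts counted 20 to 157 genes. Libraries labelled female gave 3694, with 2467 higher and 1227 lower. Quantile normalization gave 1986 higher, 1364 of them at least 2-fold, and 34 genes for the difference. Without the filter 3180 genes were lower and 928 passed the difference, and with a spread per group 556 did. The causes were not tested. At an unadjusted p of 0.05, 7662 genes passed.

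Directions that turned belonged to genes that did not pass. The log2 change of H3f3b was -0.153 at a common FPKM sum, -0.044 with upper-quartile scaling, -0.011 without tumors 8 and 9, -0.078 against forebrain cultures and -0.165 to 0.171 with 1 library left out. That of Mdm2 was -0.098 at a common sum, -0.016 after quantile normalization, -0.198 against forebrain cultures and -0.049 to 0.148 with 1 library left out. Aqp4 had 0.057 without tumors 8 and 9, 0.040 in libraries labelled female and 0.379 against forebrain cultures. Myc had 0.085 in libraries labelled female and -0.409 to 0.136 with 1 library left out. Htr3a had -0.325 and Eif3l 0.013 after quantile normalization, Lcat -0.0069 to 0.806 and Gtpbp1 -0.143 to 0.333 with 1 library left out. For tumors against cultures, no paired analysis was possible because tumor numbers and experiment ids share fewer than 2 numbers. With a replicate block by experiment id of the K27M and WT-Tag cultures, chosen after seeing the data, 70 genes passed the difference and no named gene changed its call. FPKM values give no read counts, so low values carry no counting interval.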
